A study of Mus musculus with 12 samples.

Results

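The sperm tail axoneme genes are the genes whose names match the dynein heavy, intermediate and light-intermediate chains (Dnah, Dnai and Dnaic, Dnali1), radial spoke proteins (Rsph), cilia and flagella associated proteins (Cfap), tektins (Tekt), outer dense fibre proteins (Odf) and the A-kinase anchor proteins Akap3 and Akap4. They were chosen by name, not by level: 68 of the 39985 gene names in the tables. These are 29 Cfap genes, 15 dynein heavy chains, 8 radial spoke genes, 6 outer dense fibre genes, 5 tektins, 3 intermediate or light-intermediate chains and 2 anchor proteins. All 68 had a row in the spermatocyte table and 58 had one in the GC2 table. Where a name stood on several rows, the row with the highest mean was taken.

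RNA sequencing covered 4 groups of 3 mouse libraries: GC2 cells with Phb knockdown, control GC2 cells, spermatocytes of Phb conditional knockout mice, and spermatocytes of control mice. GC2 is a mouse line described as cultured spermatocytes, and the primary cells were sorted from enzyme-digested testis tubules by Hoechst staining of DNA. Phb encodes prohibitin, a scaffold protein of the inner mitochondrial membrane. No source used here gives the knockdown method, the Cre driver of the deletion, or the strain and age of the mice, and the deposited design names biological replicates without saying which mice or cultures stood behind each library, so p-values measure only the spread between these libraries.

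The axoneme is the core of a motile cilium or sperm tail: doublet microtubules arranged around a central pair. Outer and inner rows of dynein motors slide neighbouring doublets past each other, and radial spokes carry signals from the central pair to the dyneins. Tektins form filaments inside the doublet wall. In the mammalian sperm tail, outer dense fibres and a fibrous sheath, which is held together by Akap3 and Akap4, surround the axoneme. Many of these genes are first transcribed in pachytene spermatocytes, well before the tail is built in spermatids.

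Promoters of 4 members are shown because RFX transcription factors, which drive ciliary genes through the X-box, are a known input to this programme. The first 3 were taken for their control level, among windows with a match and at most 9 annotated exon bases, and Cfap20 was added after its values were seen because it kept most of its level in the knockout. Each run is the stretch of 250 bases before a RefSeq start (build GRCm38.p6), 5′ to 3′ on the gene's strand, which is the minus strand for all 4. Cfap206 lies at chr4:34730207-34730456, Tekt1 at chr11:72361883-72362132, Cfap52 at chr11:67965643-67965892 and Cfap20 at chr8:95434870-95435119. Capitals mark matches to the X-box core letters GTTNCCA on either strand.
Cfap206: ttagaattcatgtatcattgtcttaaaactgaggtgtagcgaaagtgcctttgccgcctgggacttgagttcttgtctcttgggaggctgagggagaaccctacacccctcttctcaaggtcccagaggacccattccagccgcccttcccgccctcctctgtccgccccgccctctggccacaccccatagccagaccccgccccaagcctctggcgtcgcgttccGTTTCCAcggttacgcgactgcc
Tekt1: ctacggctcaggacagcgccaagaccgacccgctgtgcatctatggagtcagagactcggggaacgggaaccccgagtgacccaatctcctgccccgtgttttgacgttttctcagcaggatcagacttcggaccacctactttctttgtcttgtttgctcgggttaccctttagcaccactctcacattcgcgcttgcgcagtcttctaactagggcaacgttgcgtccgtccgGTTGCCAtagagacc
Cfap52: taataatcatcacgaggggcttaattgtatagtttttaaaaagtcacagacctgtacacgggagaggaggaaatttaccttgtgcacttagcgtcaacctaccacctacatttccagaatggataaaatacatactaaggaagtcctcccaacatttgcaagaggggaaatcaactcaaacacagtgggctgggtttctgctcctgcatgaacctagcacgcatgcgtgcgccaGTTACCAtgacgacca
Cfap20: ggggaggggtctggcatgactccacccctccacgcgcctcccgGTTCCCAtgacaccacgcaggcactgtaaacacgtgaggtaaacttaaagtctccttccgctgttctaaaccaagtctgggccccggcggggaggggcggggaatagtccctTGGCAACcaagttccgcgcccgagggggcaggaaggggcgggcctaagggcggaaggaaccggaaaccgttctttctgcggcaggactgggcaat
The match began 23 bases before the start in Cfap206, 15 bases before it in Tekt1 and 16 bases before it in Cfap52. In Cfap20 it was found 207 and 95 bases before the start. Of the 68 members, 56 were matched to RefSeq by symbol or synonym, with 68 windows between them. GTTNCCA stood in 20 of those 68 windows (29.4%) and in 4611 of all 32851 windows (14%). The MYB letters TAACNG stood in 21 member windows (30.9%) and in 19.8% of all windows. The cyclic AMP response element TGACGTCA stood in 1 member window (1.47%) and in 1.55% of all windows. Both strands were searched, the 3 motifs were chosen after the member promoters were read, and a match is only a run of letters. Dnah5 and Odf2l, whose levels are given below, also held GTTNCCA.

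The targeted gene was read first, as a check of the labels. Phb had 22.7, 18.4 and 19.0 FPKM in knockdown GC2 cells, against 56.6, 54.0 and 52.4 FPKM in control GC2 cells (log2 fold change -1.40, adjusted p = 0.00062). In spermatocytes it had 11.8, 11.3 and 11.5 FPKM in knockout libraries, against 12.6, 13.4 and 13.9 FPKM in control libraries (log2 fold change -0.18, adjusted p = 0.0074). Knockdown libraries thus kept 36.85% of the control mean and knockout libraries 87.1%, and the groups did not overlap in either kind of sample. The spermatocyte values alone do not show the deletion, and those libraries are called knockout by their label. FPKM is fragments scaled by transcript length and library size, and fold changes were taken after adding 1 FPKM and going to log2, so changes of low genes come out too small. The tables give no read totals, so depth is unknown and no counting interval is given. The 2 kinds of sample come from separate tables with different rows and are tested apart, and levels set across them are side by side only.

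The sorted cells were checked against marker genes. Of all tested spermatocyte rows, 40.9% were called higher and 38.5% lower, and the marker counts stand beside those shares. Sertoli cell markers, from the somatic cells that nurse the germ cells, summed to 4169 to 4332 FPKM in knockout libraries and to 1036 to 1135 FPKM in control libraries, and 16 of 18 were called higher. Leydig cell markers summed to 386 to 395 FPKM in knockout and 49.8 to 54.7 FPKM in control libraries, with 9 of 9 tested called higher. Myoid and endothelial markers were higher in 8 of 8 tested and immune markers in 5 of 6. General germ cell markers summed to 395 to 400.0 FPKM in knockout and 964 to 992 FPKM in control libraries, and 8 of 8 tested were called lower, with a median log2 fold change of -1.09. With quantile normalization 6 of these were lower and 0 higher, and with median centring 6 and 1. By stage, markers of leptotene and zygotene cells, the early part of meiotic prophase, were split, with 9 lower and 4 higher of 14 and a median of -0.13. With median centring or quantile normalization that split was 5 lower and 6 higher, or 5 and 5. Pachytene and diplotene markers were lower in 16 of 17, with a median of -2.51 and sums of 144 to 146 FPKM in knockout against 2657 to 2712 FPKM in control libraries, and 5 of the 17 reached 1 FPKM in control libraries alone. Markers of round and elongating spermatids, in sums of 12.2 to 15.7 FPKM in knockout and 1088 to 1098 FPKM in control libraries, were lower in 20 of 20, of which 15 reached 1 FPKM in control libraries alone. Markers of spermatogonia, the cells before meiosis, were lower in 9 and higher in 3 of 18, or in 2 and 6 with either scaling and 6 to 8 lower without 1 library. Fibroblast markers were lower in 4 and higher in 3 of 9, while their sums were 142 to 149 FPKM in knockout and 84.35 to 92.42 FPKM in control libraries. Mitochondrial transcripts made up 17.1% to 19.5% of the FPKM in knockout and 12.2% to 13.6% in control libraries. The part of these shifts in the results below was not tested, and in bulk RNA fewer cells of a type and less RNA per cell cannot be told apart. In GC2 cells the general germ cell markers summed to 0.20 to 0.40 FPKM in knockdown and 0.15 to 0.25 FPKM in control libraries, with Ddx4, Dazl and the rest below the level tested. Fibroblast markers summed there to 599 to 637 FPKM in knockdown and 874 to 930 FPKM in control libraries.

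The axoneme genes had far lower levels in knockout than in control spermatocytes. Their summed level was 139 to 144 FPKM in knockout libraries, which is 0.0472% to 0.0494% of the library, against 2725 to 2805 FPKM in control libraries, or 0.941% to 0.967%. The mean was lower in 67 of 68 members, and the level left in the knockout had a median of 2.87% of the control mean, with a range of 0.218% for Dnah6 to 117% for Rsph4a. The remaining 2, Tekt4 and Cfap73, were listed at 0 in every knockout library and have no such share.

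Testing was limited to rows with 1 FPKM or more in at least 3 of the 6 libraries compared. Of the 68 members, 63 were tested, and 43 of them passed through the control libraries alone, so they had to be lower. The other 20 reached 1 FPKM in at least 1 knockout library too, and all 20 were called lower, with a median log2 fold change of -3.02 and a median of 10.3% of the control level left. Among all tested rows 79.4% were called, 38.5% lower and 40.9% higher, 81.8% had groups that did not overlap, and the median log2 fold change was 0.05. Of those 20 members, 16 were lower by at least 2 on the log2 scale, where 10.9% of all tested rows were, and 2 by at least 4, where 2.63% were. Including those that passed through the controls alone, 63 members were called lower and 0 higher. Knockout and control libraries did not overlap for any of the 63. The median over the 63 was -3.58, and it was -3.58 as well without the 2 listed at 0.

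**Figure D1:**
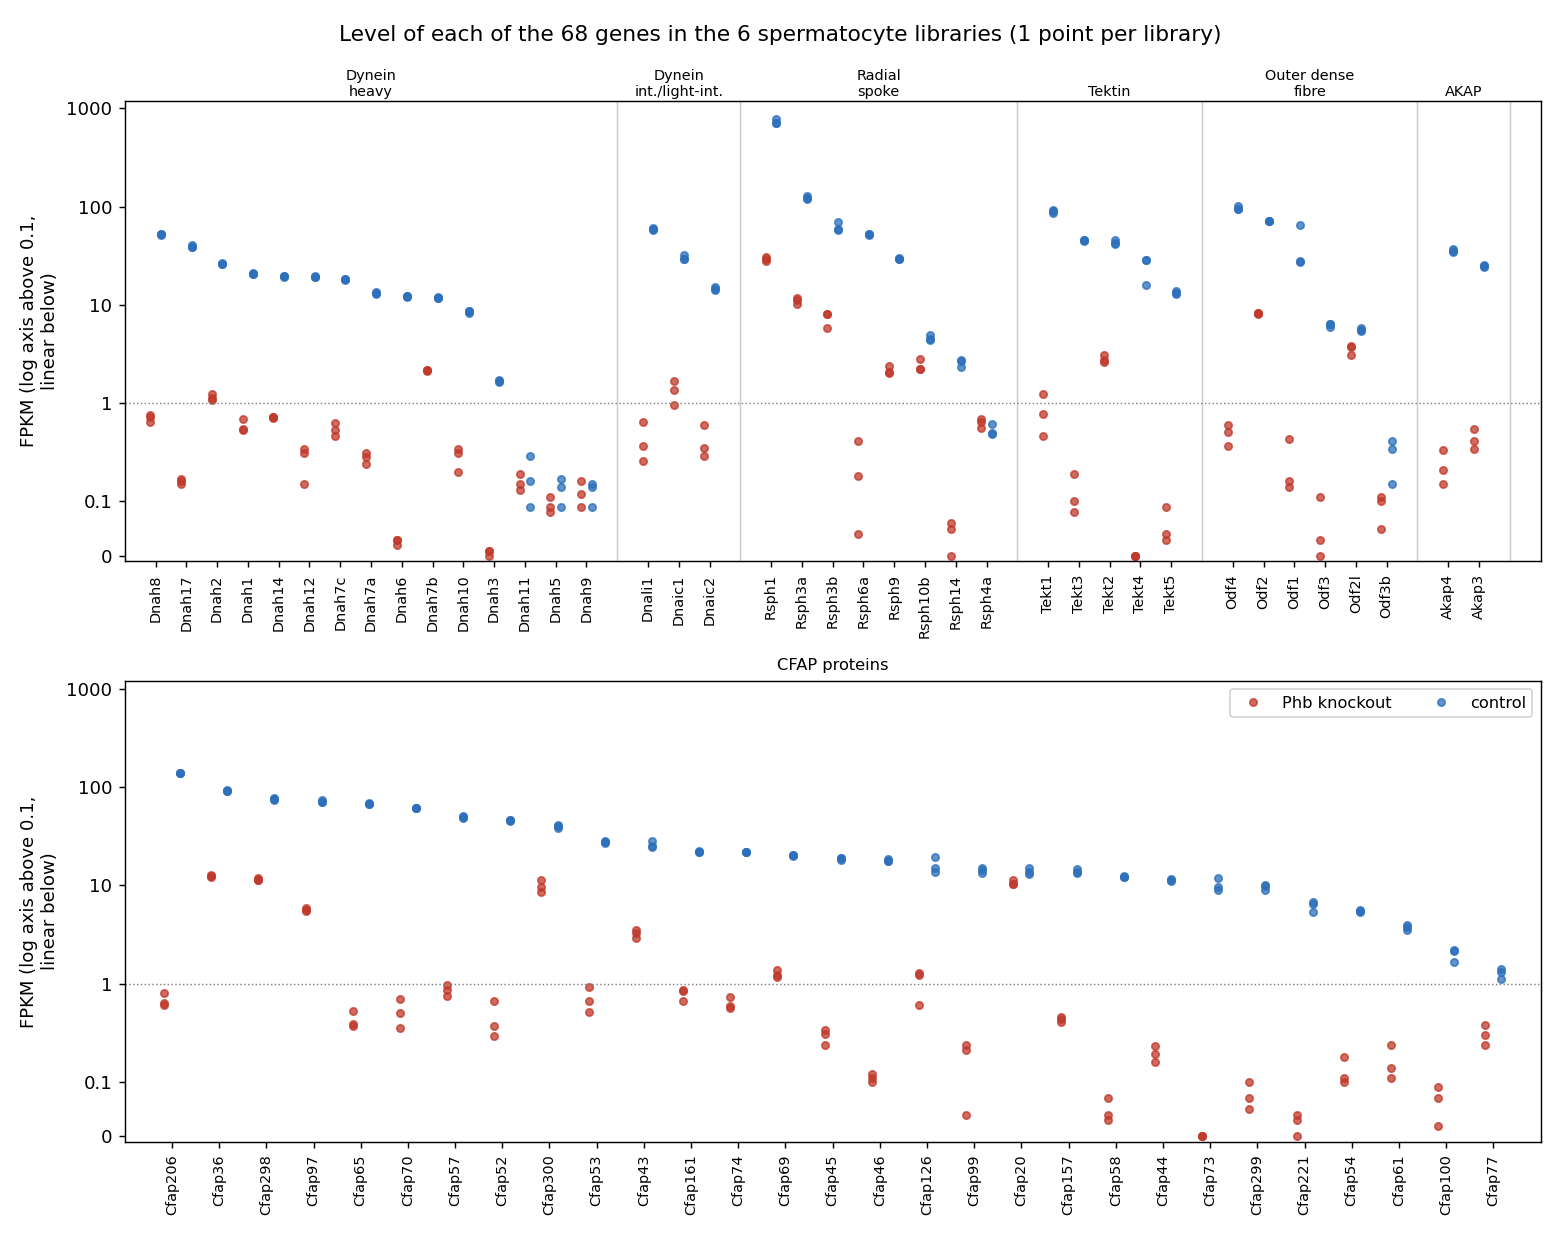
Level of each of the 68 genes in the 3 Phb knockout (red, left) and 3 control (blue, right) spermatocyte libraries, 1 point per library, in FPKM on an axis that is logarithmic above 0.1 and linear below. The groups stand apart in the 63 tested genes, while Dnah5, Dnah9, Dnah11 and Rsph4a lie under 1 FPKM in both and the groups meet.

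Dynein heavy chains are the motors themselves. Dnah8 and Dnah17 encode the outer-arm motors of the mouse sperm tail. Dnah17 had 0.15, 0.17 and 0.16 FPKM in knockout libraries, against 38.5, 40.7 and 38.6 FPKM in control libraries (log2 fold change -5.12, SE 0.0394, adjusted p = 7e-09). Dnah8, whose row also holds a transcript of the unnamed gene AC165951, had 0.72, 0.76 and 0.65 FPKM in knockout libraries, against 53.0, 51.4 and 52.3 FPKM in control libraries (log2 fold change -4.96, SE 0.0381, adjusted p = 7e-09). Every knockout library lay under 1 FPKM and every control library above 38 FPKM for both motors. The outer-arm chains of respiratory and other motile cilia did not have that pattern. Dnah5 had 0.09, 0.11 and 0.08 FPKM in knockout libraries and 0.14, 0.17 and 0.09 FPKM in control libraries. Dnah9 had 0.12, 0.09 and 0.16 FPKM in knockout and 0.15, 0.14 and 0.09 FPKM in control libraries. Dnah11 had 0.15, 0.19 and 0.13 FPKM in knockout and 0.09, 0.29 and 0.16 FPKM in control libraries. All 3 overlapped between the groups and were too low to be tested.

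Inner-arm motors were lower too. Dnah2 had 1.07, 1.24 and 1.13 FPKM in knockout libraries, against 25.9, 26.7 and 26.2 FPKM in control libraries (log2 fold change -3.67, adjusted p = 1.6e-08). Dnah1, which when lost gives short, malformed sperm tails in human and mouse, had 0.69, 0.53 and 0.54 FPKM in knockout and 20.9, 20.4 and 20.7 FPKM in control libraries (log2 fold change -3.78, adjusted p = 2.6e-08). The remaining 8 tested heavy chains had control means between 1.69 FPKM for Dnah3 and 19.5 FPKM for Dnah14, and all 8 were called lower. Of all 12 tested heavy chains, 10 reached 1 FPKM in control libraries alone and so had to be lower. Only Dnah2 and Dnah7b reached it in a knockout library too, and 38.5% of all tested rows were called lower. The related copies Dnah7a, Dnah7b and Dnah7c, which lie on chromosome 1 and can share reads, kept 2.09%, 18.2% and 2.96% of their control means. Dnah7b thus had 2.13, 2.18 and 2.19 FPKM in knockout and 11.89, 11.89 and 12.03 FPKM in control libraries, and its level cannot be fully separated from that of its copies.

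Intermediate and light-intermediate chains anchor the motors to the doublet. Dnali1, a light-intermediate chain of the inner arms, had 0.26, 0.65 and 0.37 FPKM in knockout libraries, against 59.3, 58.2 and 60.1 FPKM in control libraries (log2 fold change -5.41, SE 0.1, adjusted p = 7.2e-08). The outer-arm intermediate chain Dnaic1 had 0.95, 1.68 and 1.35 FPKM in knockout and 32.5, 29.4 and 29.0 FPKM in control libraries (log2 fold change -3.76, adjusted p = 7e-07). Its partner Dnaic2 had 0.35, 0.60 and 0.29 FPKM in knockout and 14.3, 14.6 and 15.1 FPKM in control libraries (log2 fold change -3.48, adjusted p = 2.6e-07). All 3 chains were separated from their controls in every library, as were 81.8% of all tested rows. Dnali1 and Dnaic2 reached 1 FPKM in control libraries alone, so their groups had to be separate.

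Radial spoke genes held the most abundant member. Rsph1, a protein of the spoke head, had 29.4, 28.1 and 30.7 FPKM in knockout libraries, against 709, 772 and 714 FPKM in control libraries (log2 fold change -4.59, SE 0.0473, adjusted p = 1.2e-08). It made up 20.2% to 21.2% of the summed member level in knockout and 25.8% to 27.5% in control libraries, and it stayed the highest member in both. Rsph6a, the spoke-head protein of mouse sperm, had 0.18, 0.04 and 0.41 FPKM in knockout and 52.2, 52.0 and 52.0 FPKM in control libraries (log2 fold change -5.47, adjusted p = 9.9e-08). Rsph6a reached 1 FPKM in control libraries alone and so had to be lower. Its counterpart in other motile cilia, Rsph4a, had 0.56, 0.64 and 0.69 FPKM in knockout and 0.62, 0.49 and 0.50 FPKM in control libraries, and the groups overlapped below the level tested. Rsph3a and Rsph3b are close copies of the spoke-stalk gene, so reads may be split between them. Rsph3a had 11.7, 10.3 and 11.2 FPKM in knockout and 122, 127 and 121 FPKM in control libraries (log2 fold change -3.37, adjusted p = 2.9e-08). Rsph3b had 8.17, 8.15 and 5.84 FPKM in knockout and 58.0, 69.6 and 59.6 FPKM in control libraries (log2 fold change -2.93, adjusted p = 3.7e-06). Both kept about the same share, 8.96% for Rsph3a and 11.8% for Rsph3b. The row of Rsph10b also holds Pms2, a mismatch repair gene, and kept 52.2%, which cannot be given to either gene.

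**Figure D2:**
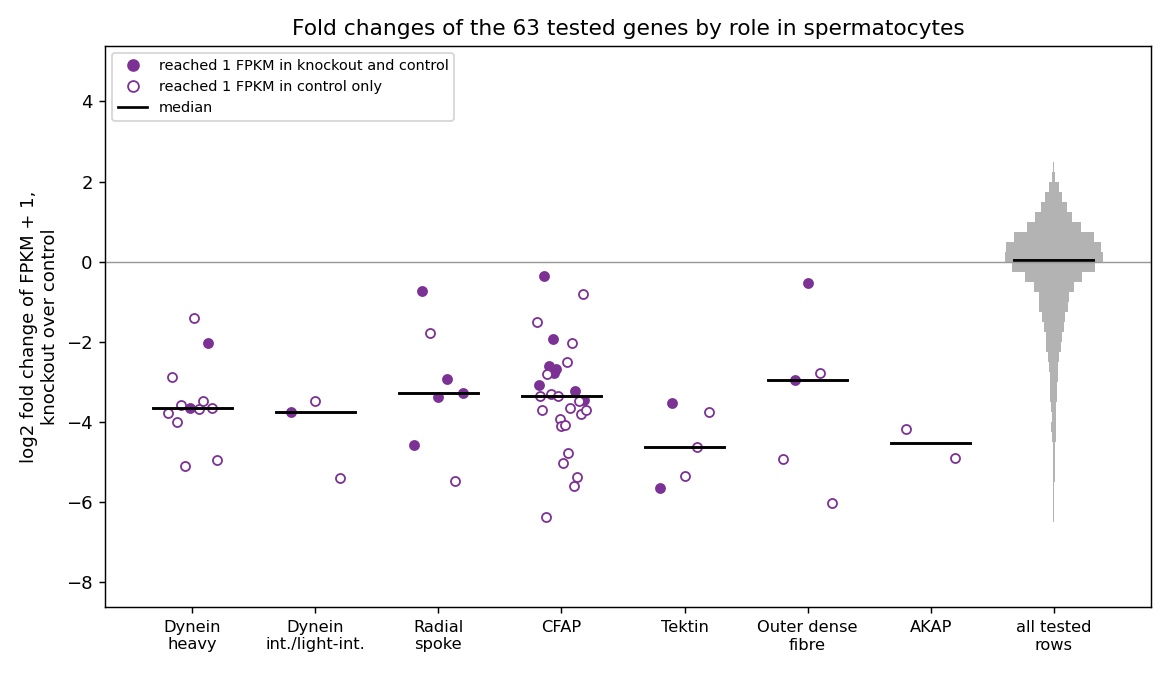
Log2 fold change of FPKM + 1, knockout over control spermatocytes, for the 63 tested genes by role, with medians as black bars and all tested rows as a grey histogram. Filled points reached 1 FPKM in at least 1 library of each group and open points in control libraries alone, and all 63 lie below 0 while the median of all rows is 0.05.

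The Cfap genes code for proteins at many places in the axoneme. All 29 were tested and called lower, where 38.5% of all tested rows were, and the median log2 fold change was -3.37. Of these 29, 21 reached 1 FPKM in control libraries alone and so had to be lower, Cfap206 among them. The other 8 reached it in at least 1 knockout library too. Cfap206, which in Tetrahymena sits at the base of a radial spoke, had 0.64, 0.61 and 0.81 FPKM in knockout libraries, against 138, 139.6 and 138 FPKM in control libraries (log2 fold change -6.37, SE 0.0503, adjusted p = 7.7e-09). It was the most abundant Cfap gene in control libraries. Cfap36 had 12.1, 12.6 and 12.8 FPKM in knockout and 91.3, 91.0 and 93.6 FPKM in control libraries (log2 fold change -2.79, adjusted p = 1.2e-08). Cfap298, a factor for dynein arm assembly in zebrafish, had 11.3, 11.9 and 11.3 FPKM in knockout and 76.7, 73.6 and 75.4 FPKM in control libraries (log2 fold change -2.61, adjusted p = 1.9e-08). Cfap97 had 5.50, 5.56 and 5.84 FPKM in knockout and 71.2, 74.4 and 70.9 FPKM in control libraries (log2 fold change -3.46, adjusted p = 1.1e-08). These 3 kept 13.6%, 15.3% and 7.81% of the control mean, against 0.497% for Cfap206.

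Cfap20 kept the most of the tested members. It encodes an inner-junction protein of the doublet microtubule and is also found at basal bodies. It had 10.2, 10.4 and 11.2 FPKM in knockout libraries, against 13.6, 15.01 and 13.1 FPKM in control libraries, or 76.5% (log2 fold change -0.36, SE 0.0617, adjusted p = 0.0021). The groups were separate but close. Cfap300 kept 24.7% and the low gene Cfap77 24.0%, and Cfap77 was not called with quantile normalization (adjusted p = 0.86). For Cfap73 the row with the highest mean held assembled transcripts only and was listed at 0 in all knockout libraries, against 8.89, 11.9 and 9.66 FPKM in control libraries. Its annotated row had 0.46, 0.61 and 0.49 FPKM in knockout and 7.46, 8.20 and 7.29 FPKM in control libraries (log2 fold change -2.51, adjusted p = 2.8e-07). The Cfap43 row was shared with Itprip and the Cfap299 row with a clone gene, so neither value belongs to 1 gene.

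All 5 tektins, the filaments of the doublet wall, were called lower, where 38.5% of all tested rows were. Of these 5, 3 (Tekt3, Tekt4 and Tekt5) reached 1 FPKM in control libraries alone and so had to be lower. Tekt1 had 1.25, 0.46 and 0.78 FPKM in knockout libraries, against 85.2, 91.3 and 91.5 FPKM in control libraries (log2 fold change -5.65, SE 0.154, adjusted p = 3.4e-07). Tekt3 had 0.10, 0.19 and 0.08 FPKM in knockout and 45.4, 46.1 and 44.2 FPKM in control libraries, so 0.273% was left (log2 fold change -5.36, adjusted p = 9.5e-09). Tekt2 kept more, with 3.12, 2.73 and 2.60 FPKM in knockout and 42.2, 45.9 and 41.6 FPKM in control libraries, or 6.52% (log2 fold change -3.54, adjusted p = 7.2e-08). Tekt4 was listed at 0 in all 3 knockout libraries, against 28.9, 16.01 and 28.6 FPKM in control libraries, and no fold is given. Tekt5 kept 0.403% of a control mean of 13.2 FPKM.

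Outer dense fibre genes, which stiffen the tail, differed widely in the level left. Of the 5 tested, 3 (Odf1, Odf3 and Odf4) reached 1 FPKM in control libraries alone and so had to be lower. Odf4 had 0.51, 0.37 and 0.60 FPKM in knockout libraries, against 94.0, 93.7 and 100.5 FPKM in control libraries (log2 fold change -6.02, SE 0.066, adjusted p = 1.4e-08). Odf1, a main fibre protein, had 0.14, 0.16 and 0.43 FPKM in knockout and 28.3, 27.4 and 65.0 FPKM in control libraries (log2 fold change -4.94, adjusted p = 2.4e-05). The third control library lay far above the other two, and without it the log2 fold change of Odf1 was -4.54 (adjusted p = 4.2e-06). Odf2, which also builds the appendages of the mother centriole, had 8.33, 8.29 and 8.10 FPKM in knockout and 71.2, 71.3 and 71.1 FPKM in control libraries, or 11.6% (log2 fold change -2.97, adjusted p = 8e-09). Odf2l, a centriole protein, had 3.85, 3.77 and 3.12 FPKM in knockout and 5.80, 5.59 and 5.44 FPKM in control libraries, or 63.8% (log2 fold change -0.53, adjusted p = 0.00071). Odf3b stayed under 0.5 FPKM in all 6 libraries and was not tested.

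Both fibrous sheath scaffolds were under 1 FPKM in the knockout. They reached 1 FPKM in control libraries alone and so had to be lower. Akap4, which lies on the X chromosome and is a main component of the sheath, had 0.21, 0.15 and 0.33 FPKM in knockout libraries, against 37.1, 34.3 and 35.5 FPKM in control libraries (log2 fold change -4.90, SE 0.0658, adjusted p = 2.4e-08). Akap3 had 0.34, 0.54 and 0.41 FPKM in knockout and 25.1, 25.4 and 24.3 FPKM in control libraries (log2 fold change -4.18, SE 0.0613, adjusted p = 3.2e-08).

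**Figure D3:**
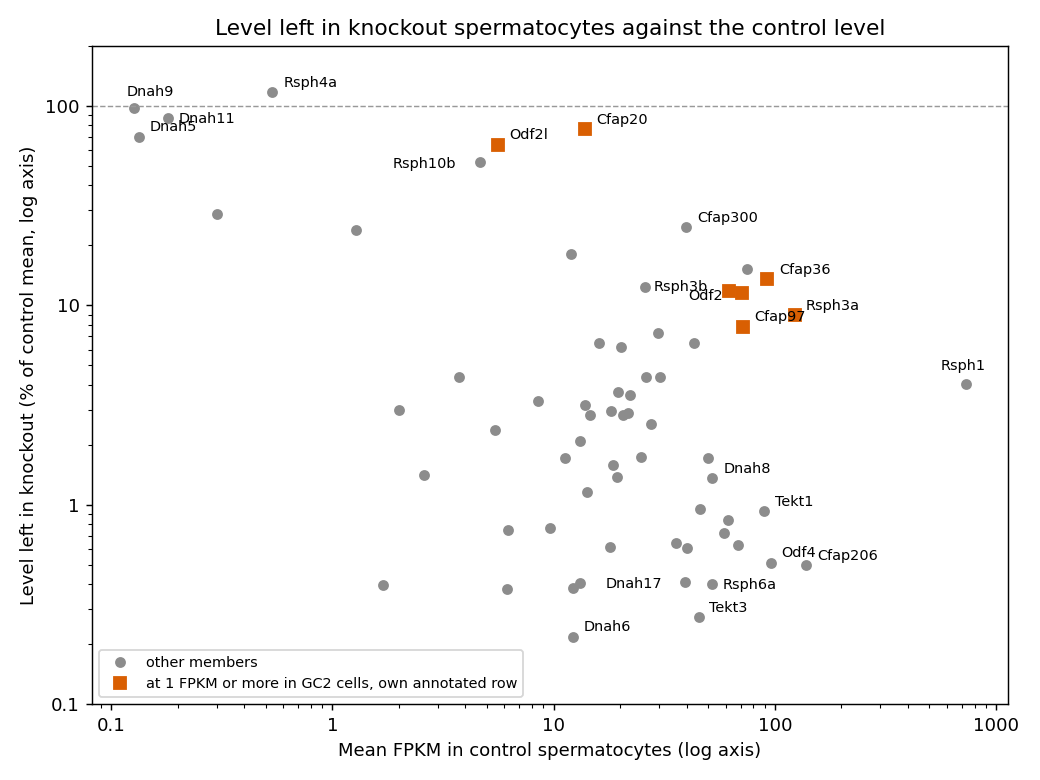
Level left in knockout spermatocytes, as a percent of the control mean, against the mean FPKM in control spermatocytes, both on log axes, for the 66 members not listed at 0 in every knockout library. Orange squares are the 7 members that also reached 1 FPKM in GC2 cells on their own annotated row, at 7.81% to 76.5%, and the dashed line marks 100%.

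The level left was also set beside presence in GC2 cells, in which the general germ cell markers were near 0. Cfap20, Cfap36, Cfap97, Odf2, Odf2l, Rsph3a and Rsph3b reached 1 FPKM in at least 3 GC2 libraries on an annotated row of their own. These 7 kept a median of 11.8% in knockout spermatocytes, with a range of 7.81% to 76.5%. The 56 other tested members, of which 54 were above 0 in a knockout library, kept a median of 1.73%, with a range of 0.218% to 52.2%. The higher end of that range is the Rsph10b row shared with Pms2. Of these 56, 43 reached 1 FPKM in control spermatocytes alone, which held their share down in advance. All 7 reached it in both groups, so the 2 medians are not on equal terms. The 20 members that reached 1 FPKM in both groups, the 7 among them, kept a median of 10.3%. This is a description of levels with no test, and all 7 were themselves lower in the knockout.

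In GC2 cells 11 of the 58 members with a row reached the level tested. Of these, 2 were called lower and 2 higher, where 24.5% of all tested rows were called, 13.9% lower and 10.7% higher, and 8 of the 11 had groups that did not overlap, against 44.9% of all rows. The median log2 fold change was -0.01, beside -0.04 over all rows. Of the 11, the row named Cfap43 reached 1 FPKM in control libraries alone, so it had to be lower and separate. Among the other 10, 1 was called lower and 2 higher, and 7 had groups that did not overlap. Cfap36 had 13.03, 12.21 and 12.48 FPKM in knockdown libraries, against 18.9, 16.5 and 15.3 FPKM in control libraries (log2 fold change -0.40, SE 0.0856, adjusted p = 0.026). Odf2 had 5.77, 5.55 and 5.11 FPKM in knockdown and 4.50, 4.51 and 4.26 FPKM in control libraries (log2 fold change 0.26, SE 0.0611, adjusted p = 0.036). Cfap36 missed the threshold without any 1 knockdown library or the second control library (adjusted p = 0.056 to 0.083). Odf2 missed it without any 1 library other than the third knockdown library (adjusted p = 0.075 to 0.10) and with no filter on low values (adjusted p = 0.069). Only 2 members, the rows described next, were called without the first or the second knockdown library or the second control library.

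The other 2 calls in GC2 cells rest on rows that cannot be given to the member. The row named Cfap43 had 0.14, 0.68 and 0.42 FPKM in knockdown libraries, against 3.73, 3.94 and 3.99 FPKM in control libraries (log2 fold change -1.81, adjusted p = 0.0014). That row reached 1 FPKM in control libraries alone and so had to be lower. It also holds an annotated transcript of the neighbouring gene Itprip, which shares 164 exon bases with Cfap43 on the same strand of chromosome 19. The highest row named Dnah7a had 60.01, 67.98 and 66.93 FPKM in knockdown and 18.2, 21.9 and 20.0 FPKM in control libraries (log2 fold change 1.65, adjusted p = 0.00034). That row holds 1 assembled transcript with no annotated identifier. The annotated Dnah7a row was listed at 0 in all 6 GC2 libraries, and another assembled row of that name, at 9.81, 10.7 and 10.3 FPKM in knockdown and 6.51, 10.5 and 6.50 FPKM in control libraries, was not called (adjusted p = 0.20).

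The other 7 tested members were not called. Cfap20 had 8.49, 7.12 and 7.54 FPKM in knockdown and 6.67, 5.63 and 5.60 FPKM in control libraries (adjusted p = 0.063). Rsph3a had 6.46, 7.46 and 6.72 FPKM in knockdown and 6.73, 4.66 and 4.35 FPKM in control libraries (adjusted p = 0.17). Cfap20 thus stood at 129% and Rsph3a at 131% of the control mean, beside 124% for Odf2, which was called. Without the first control library both were called higher, with an adjusted p of 0.047 for Cfap20 and 0.022 for Rsph3a. Cfap97 (87.3% of the control mean), Odf2l (94.8%) and the shared Rsph10b row (112.7%) also had groups that did not overlap, as did Cfap20, with adjusted p-values of 0.12, 0.48 and 0.11. The groups overlapped for Rsph3a, Rsph3b and Rsph14, and the last 2 had adjusted p-values of 0.96 and 0.93. The other 47 members averaged at most 1.01 FPKM in knockdown and 0.913 FPKM in control libraries. Just outside the limit, Dnah8 had 1.02, 0.96 and 1.06 FPKM in knockdown and 0.27, 0.29 and 0.28 FPKM in control libraries. Just inside it, the Rsph14 row, again of assembled transcripts, had 1.31, 1.04 and 1.12 FPKM in knockdown and 1.17, 1.15 and 1.19 FPKM in control libraries.

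**Figure D4:**
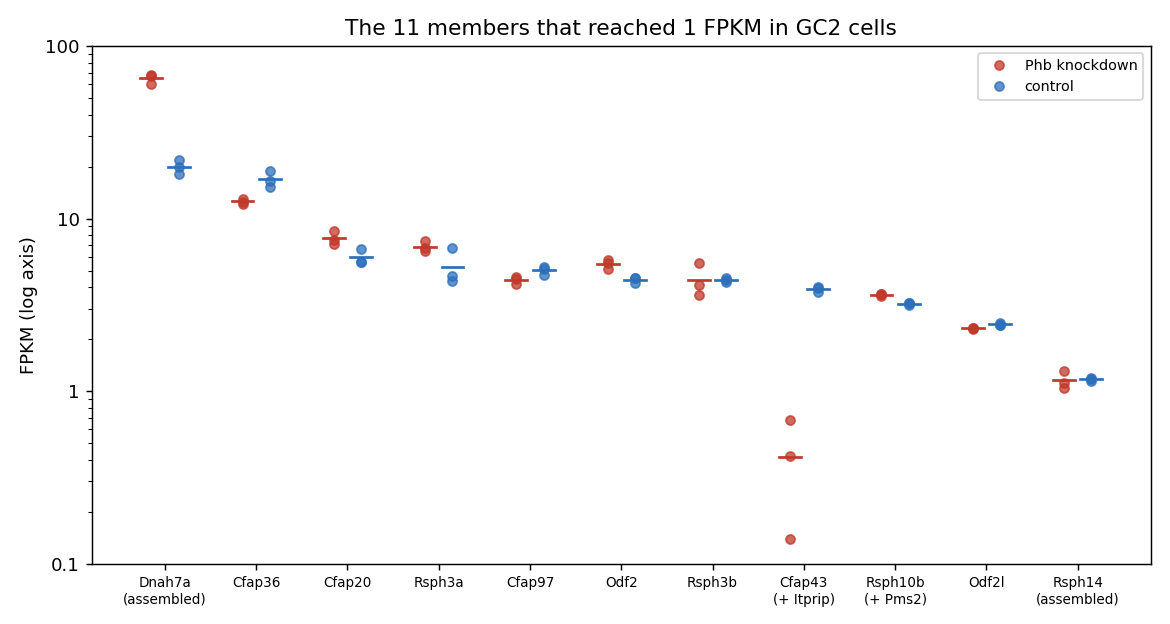
FPKM on a log axis of the 11 members that reached 1 FPKM in at least 3 GC2 libraries, with Phb knockdown (red) left of control (blue), 1 point per library and bars at the means. Rows of assembled transcripts and rows that hold another gene are marked under the name, and the separated pairs with the widest gaps, Dnah7a and Cfap43, are such rows.

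After 1 FPKM was added, the 11 members tested in both kinds of sample had more negative log2 fold changes in spermatocytes than in GC2 cells. The difference of the 2 log2 fold changes was tested in 1 fit over all 12 libraries, and all 11 passed, against 60.9% of the 9666 gene names tested. The shared row of Cfap43 owed its direction to the 1 FPKM added: it kept 12.4% of the control mean in knockout spermatocytes and 10.6% in knockdown GC2 cells, and with a pseudocount of 0.1 FPKM its difference was 0.14 (adjusted p = 0.82). The other 10 passed with that pseudocount too. Odf2 differed by -3.22 (SE 0.0624, adjusted p = 4.1e-10), and Cfap97 by -3.30 (SE 0.0689, adjusted p = 5.7e-10). The smallest difference was that of Odf2l, at -0.48 (SE 0.087, adjusted p = 0.00088). Replicate libraries were less alike in GC2 cells than in spermatocytes, which can make these p-values too small, and all 11 also passed with the spread fitted within each kind of sample.

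The wider tail programme was read from lists of known genes, beside the 79.4% of all tested rows that were called and the 38.5% called lower. Rows that reached 1 FPKM in control libraries alone had to be lower, so the count among rows that also reached it in at least 1 knockout library (also seen in the knockout) follows each list. Dynein assembly factors fold and pre-assemble the arms in the cytoplasm. Of 16 genes listed as such, 14 were lower and 1 higher, with a median log2 fold change of -1.40. Of the 11 also seen in the knockout, 9 were lower. The list holds Tbc1d31 (log2 fold change -0.42), whose part in arm assembly was not checked. Zmynd10 had 0.94, 0.88 and 0.96 FPKM in knockout libraries, against 119, 121 and 116 FPKM in control libraries. Dnaaf1 had 2.82, 2.43 and 2.95 FPKM in knockout and 189, 188 and 192 FPKM in control libraries. The 1 higher row, Dnaaf3, is shared with the troponin gene Tnni3. Among the lower rows, those of Dnaaf2, Dyx1c1, Spag1 and Ccdc103 also hold other genes, so these values cannot be given to the factor alone. The outer-arm docking complex was lower in 5 of 5, with a median of -2.90, and in 2 of 2 also seen in the knockout. Further dynein subunits were lower in 9 of 12, and in 4 of 7 also seen in the knockout, with Dynll1, a light chain that cytoplasmic dynein also uses, higher.

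The nexin-dynein regulatory complex, which links neighbouring doublets, was lower in 12 of 12 with a median of -3.76, and in 5 of 5 also seen in the knockout. Its member Tcte1 had 0.20, 0.11 and 0.10 FPKM in knockout and 43.4, 44.4 and 43.4 FPKM in control libraries. Central apparatus genes were lower in 14 of 15 with a median of -3.23, and in 5 of 6 also seen in the knockout. Of these, Spag17 had 0.11, 0.06 and 0.11 FPKM in knockout and 40.5, 40.8 and 40.4 FPKM in control libraries. Doublet inner proteins were lower in 15 of 15 with a median of -3.06, and in 9 of 9 also seen in the knockout. Fibrous sheath and midpiece genes were lower in 14 of 15, with Vdac3, a mitochondrial pore protein, higher, and a median of -4.03, and 5 of 6 also seen in the knockout were lower. Tail assembly and manchette genes were lower in 21 of 21 with a median of -3.77, and in 8 of 8 also seen in the knockout. Tail ion channels and signalling genes were lower in 19 of 19 rows with a median of -3.34, and in 4 of 4 also seen in the knockout. Intraflagellar transport, which builds all cilia and not sperm tails alone, was lower in 26 of 28, all 28 also seen in the knockout, with a median of -1.22. Ift140 had 9.31, 8.88 and 8.75 FPKM in knockout and 59.2, 61.5 and 59.5 FPKM in control libraries.

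Tubulins, the building blocks of the doublets, divided. Of 16 rows tested, 7 were lower and 7 higher, and of the 15 also seen in the knockout 6 were lower and 7 higher. The testis alpha-tubulin copies Tuba3a and Tuba3b, which can share reads, were lower. Tuba3b had 75.6, 77.8 and 79.0 FPKM in knockout libraries, against 803, 815 and 794 FPKM in control libraries (log2 fold change -3.36, adjusted p = 7e-09). Tuba1c, a widely expressed alpha-tubulin, had 85.8, 85.4 and 86.6 FPKM in knockout and 31.3, 31.3 and 30.4 FPKM in control libraries (log2 fold change 1.44, adjusted p = 4.5e-08). With quantile normalization 5 tubulin rows were lower and 8 higher.

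Transcription factors of ciliary and late germ cell programmes were lower in 12 of 20 and higher in 3 (Crtc2, Rfx7 and Taf7l), and 9 of the 17 also seen in the knockout were lower. With quantile normalization 11 were lower and 7 higher, and with median centring 12 and 6. Hsf5 had 1.82, 2.21 and 2.24 FPKM in knockout and 49.3, 47.7 and 48.6 FPKM in control libraries. Rfx2, named after its values were seen because of the X-box letters above, had 1.29, 1.33 and 1.29 FPKM in knockout and 26.5, 16.7 and 16.8 FPKM in control libraries (log2 fold change -3.16, adjusted p = 9e-06). Rfx1 had 5.13, 5.00 and 5.37 FPKM in knockout and 5.44, 5.78 and 5.42 FPKM in control libraries (adjusted p = 0.12). Rfx3 had 1.92, 1.92 and 1.91 FPKM in knockout and 1.87, 1.79 and 2.07 FPKM in control libraries (adjusted p = 0.94). Markers of multiciliated epithelium, another cell type that makes axonemes, summed to 3.77 to 4.43 FPKM in knockout and 21.0 to 22.0 FPKM in control libraries, with 4 of 5 tested lower, among them 2 of 3 also seen in the knockout, or 2 lower and 2 higher with quantile normalization. Of the 13 markers listed, only those 5 were high enough to test. Among the others were the regulators Mcidas and Gmnc, at or under 0.06 FPKM in all 6 libraries. Whether such cells were present was not tested.

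**Figure D5:**
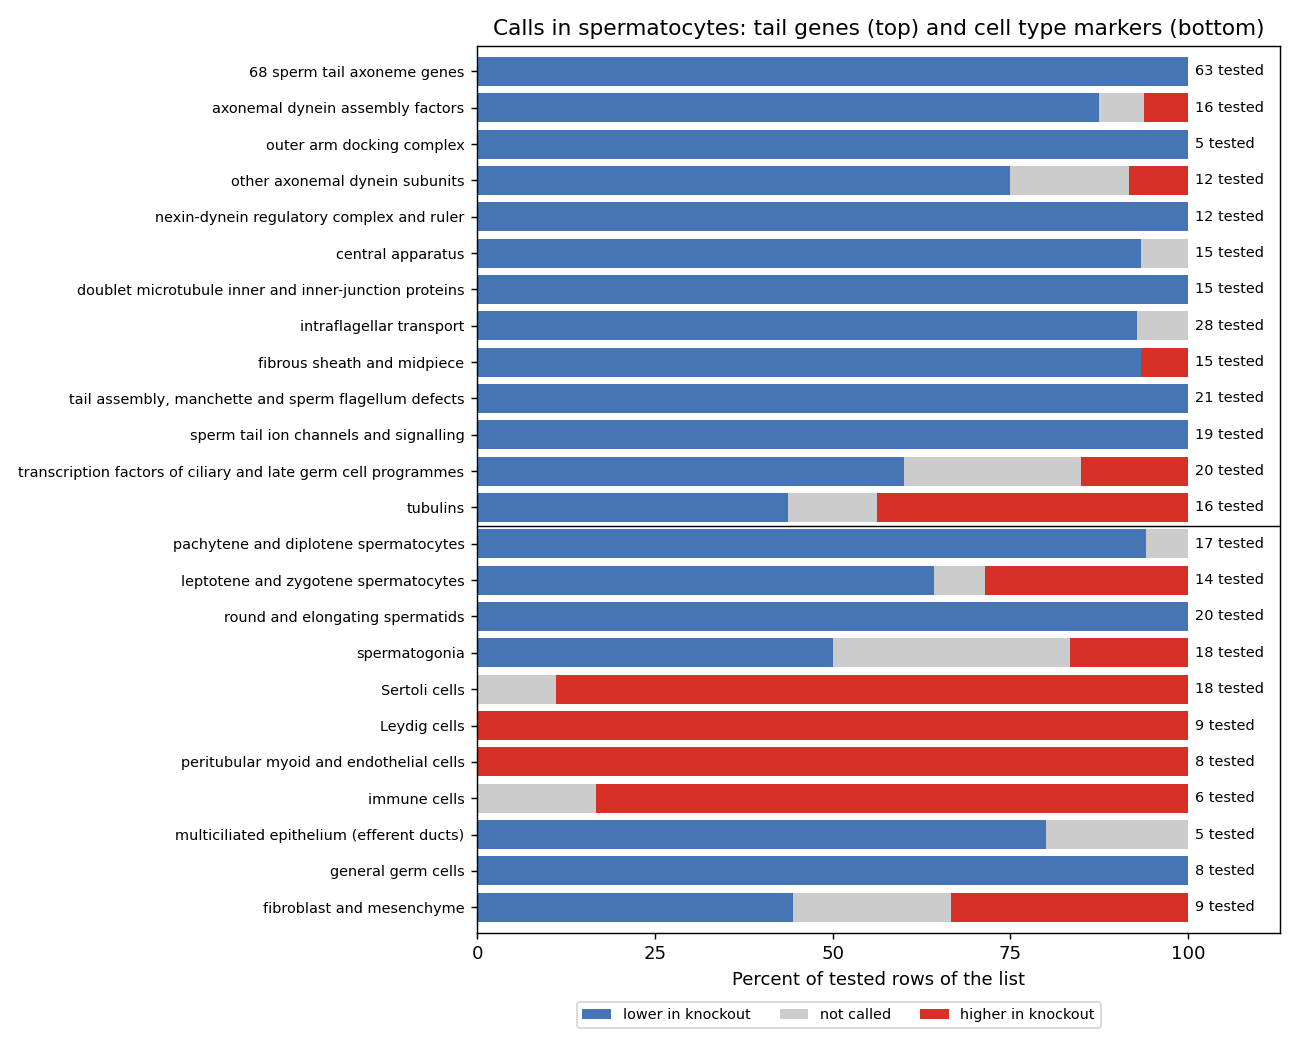
Share of tested rows called lower (blue), not called (grey) and higher (red) in knockout against control spermatocytes, as a percent of each list, rows that passed through control libraries alone included, for the axoneme genes and other tail lists above the line and cell type markers below it. The tail lists other than the tubulins are mostly blue, as are pachytene and spermatid markers. Sertoli, Leydig, myoid and endothelial, and immune markers are mostly red, while fibroblast markers are divided.

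In GC2 cells, where 24.5% of all tested rows were called, most of the same lists had few rows at the level tested. Intraflagellar transport was lower in 2 and higher in 2 of 25 tested, and the regulatory complex was higher in 1 of 2. Genes listed as dynein assembly factors were lower in 1 of 9. That 1 was Tbc1d31 (adjusted p = 0.0021), whose part in arm assembly was not checked. Without 1 library, intraflagellar transport had 1 to 2 lower and 0 to 3 higher calls. Assembly factors then had 1 to 2 lower calls, and the regulatory complex had 0 higher and 0 to 1 lower. Tail channels and signalling genes were lower in 1 and higher in 1 of 3. Tubulins were lower in 1 of 12, or in 0 to 1 without 1 library, and the 9 transcription factors tested had no call. The other dynein subunits (5 tested), doublet inner proteins (3), tail assembly genes (3), fibrous sheath genes (2) and central apparatus (1) had no call. No docking complex gene reached the level tested.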

How the data were processed

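The values used are FPKM as the authors deposited them, 1 for each gene row in each of the 12 libraries. Libraries were made with a strand-marking kit, per the labels' protocols. HISAT2 version 2.1.0 and DESeq are named with the builds GRCm38 and mm10, per the submitters' processing notes. No source used here gives the quantifier, annotation release or filters, and low values showed no steps that would give back read counts. FPKM does not correct for composition, so genes that take a larger share of the RNA lower all others.

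Each kind of sample was tested apart with limma 3.58.1 (R 4.3.3) with a variance trend on log2(FPKM + 1), over rows with a gene name and at least 1 FPKM in at least 3 of 6 libraries. Calls are two-sided at a Benjamini-Hochberg adjusted p under 0.05 over all rows. The difference of both fold changes was fitted over 12 libraries. The fits were tested on simulated data. A list counts each row once, and some genes stand on more than 1 list.

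The members and lists were chosen with earlier results of these data known. Values by library are given for the 4 most abundant members of each role in spermatocytes and for members called in GC2 cells, and of the other lists for up to 3 called genes with the smallest adjusted p; exceptions are described as such or sit at a limit of the filter. Replicate pairs had a Pearson r of 0.924 to 0.937 in GC2 and 0.984 to 0.988 in spermatocytes, across rows, and no 2 files were identical. Gene coordinates and exon overlaps come from GENCODE M21 (GRCm38). Tables were made with pandas 2.3.3 and numpy 2.4.6 in Python 3.11.15, and plots with matplotlib 3.10.9. Alternatives were the pseudocount, the filter, quantile normalization, median centring, removal of mitochondrial rows, summed rows, a replicate block, each library left out and, added after the data were seen, rows shared or assembled left out and the spread fitted within each kind.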

Additional observations from a re-analysis of the deposited data

Results flagged for a closer look

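The fold change in spermatocytes differed from that in GC2 cells for 11 members, by the test of the difference itself. The log2 fold change in spermatocytes minus that in GC2 cells was -5.13 for Dnah7a, -3.72 for Rsph3a, -3.30 for Cfap97, -3.22 for Odf2, -2.91 for Rsph3b and -2.39 for Cfap36. It was -1.78 for Rsph14, -0.87 for Cfap43, -0.86 for Rsph10b, -0.68 for Cfap20 and -0.48 for Odf2l. The GC2 rows of Dnah7a and Rsph14 hold assembled transcripts alone, and the rows of Cfap43 and Rsph10b hold another gene in both tables, so these 4 differences cannot be given to the member. The direction for Cfap43 rests on the 1 FPKM added, since with a pseudocount of 0.1 its difference was 0.14 (adjusted p = 0.82). Of all names tested, 60.9% passed this test.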

How the results depend on the processing

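In spermatocytes all 63 tested members stayed lower without each library in turn (63 to 63), and the replicate block changed no member call there. With quantile normalization Cfap77 lost its call (log2 fold change -0.02, adjusted p = 0.86), which left 62, with the 5 FPKM filter 57 were tested and all were called, and with no filter Odf3b was called as well (adjusted p = 0.048). The counts over all rows ranged from 12223 to 12342 (5947 to 6020 lower, 6276 to 6330 higher) without 1 library, and with a filter of 5 FPKM there were 8240 (3896 lower, 4344 higher). The member median of -3.58 ranged from -3.59 to -3.57 without 1 library. It was -3.67 with the 5 FPKM filter, -3.48 with no filter, -4.91 with a pseudocount of 0.1, -3.24 with quantile normalization, -3.42 with median centring, -3.65 without mitochondrial rows, -3.625 with rows of 1 name summed and -3.65 without shared or assembled rows. The median of all rows moved to 0.21 with median centring, 0.28 with quantile normalization and 0.12 without mitochondrial rows, and the share of calls that were higher moved to 59.2%, 62.0% and 55.04%, against 51.6%. In GC2 cells that share moved to 52.7% with median centring and 53.6% with quantile normalization, against 43.5%.

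GC2 calls among members ranged from 2 to 5 without 1 library (1 to 2 lower, 1 to 3 higher), and those over all rows from 1789 to 2258 (1034 to 1296 lower, 744 to 962 higher, with 744 without knockdown replicate 3 and 750.0 without knockdown replicate 2). The GC2 member median ranged from -0.05 to 0.09 and was 0.32 with the 5 FPKM filter. Without knockdown replicate 1, knockdown replicate 2 or control replicate 2, 2 members were called, the rows of Cfap43 and Dnah7a. Cfap36 lost its call without knockdown replicates 1, 2 or 3 or control replicate 2 (adjusted p of 0.056, 0.083, 0.081 and 0.070). Odf2 lost its call without knockdown replicates 1 or 2 or any control library, with no filter (adjusted p = 0.069) and with the replicate block (adjusted p = 0.060). Cfap20 gained one without control replicate 1 (adjusted p = 0.047) and with the replicate block (adjusted p = 0.039), and Rsph3a without control replicate 1 (adjusted p = 0.022). With no filter Dnah8, Cfap69 and Dnaic2 were called (adjusted p of 0.0039, 0.024 and 0.040), and Cfap157 with rows summed (adjusted p = 0.036). With the 5 FPKM filter 1 member was lower and 764 rows were higher, with no filter 4 members were lower, and without shared or assembled rows 2 members were called, 1 lower and 1 higher. The number of members whose fold changes differed between the kinds of sample was 11 without each library, 54 with no filter and 5 with the 5 FPKM filter, as more or fewer members enter, and 10 with a pseudocount of 0.1, where the difference of Cfap43 turned to 0.14 (adjusted p = 0.82).

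Replicate numbers were not taken to pair the samples, since not every correlation below was over 0.1. Same-numbered libraries had deviations from their group means that correlated at 0.124, 0.078 and 0.0607 in GC2 and at 0.00744, -0.0539 and 0.00738 in spermatocytes. In GC2 each library correlated best with its own number, a hint from the data alone. With the replicate block 1985 GC2 rows were called, against 2649 without it, and 12482 spermatocyte rows, against 12672. The cause of these shifts was not tested. Unknown depth limits what can be said of members under 1 FPKM.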
